A study of Mus musculus with 6 samples.

Results

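The subunits of the mitochondrial respiratory chain that are encoded in the nucleus were followed in an ATAC-seq data set of mouse quadriceps femoris, a thigh muscle. ATAC-seq reads out open chromatin by letting the transposase Tn5 insert adapters where DNA is accessible, and frozen muscle was the source of the nuclei. Members were all peaks that the authors had annotated to a gene whose symbol starts with Nduf, Uqcr, Atp5 or Cox4 to Cox8, or is Sdha, Sdhb, Sdhc or Sdhd. This gave 247 of 75134 deposited peaks and 85 of 16020 annotated genes. The groups were 3 libraries of genotype Prr14-KO (replicates 4, 5 and 7), called KO here, and 3 of genotype Prr14-WT (replicates 3, 4 and 8), called WT. Wherever 3 values are listed for a group, they stand in that order of replicates. The sources used here give no allele, strain, age or sex. The labels do not say whether each library is a separate animal, so every p-value measures the spread between these libraries, which may be technical.

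The respiratory chain sits in the inner mitochondrial membrane. Complex I (NADH dehydrogenase) and complex II (succinate dehydrogenase) feed electrons to ubiquinone, complex III (cytochrome bc1) passes them to cytochrome c, complex IV (cytochrome c oxidase) hands them to oxygen, and complex V (ATP synthase) uses the proton gradient to make ATP. Most subunits are encoded by nuclear genes, and the transcription factors NRF1, GABP and the estrogen-related receptors, with their coactivator PGC-1α, are known to act on many of them. Oxidative muscle fibers hold more of the chain than fast glycolytic fibers. Several cytochrome c oxidase subunits have a form made in heart and skeletal muscle and a form made in most tissues.

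By complex, the members were 31 genes with 99 peaks for complex I, 8 complex I assembly factors (the Ndufaf genes) with 25 peaks, 4 genes with 8 peaks for complex II, 8 with 17 for complex III, 16 with 49 for complex IV and 17 with 47 for complex V. The remaining 2 peaks were annotated to the pseudogene Cox5b-ps. Genes were placed by name. Ndufa4, whose protein is now placed with cytochrome c oxidase, is therefore counted under complex I, as is Ndufa4l2 by its name alone. Cox7a2l, a factor of supercomplex assembly, is counted under complex IV. Of the 247 peaks, 243 passed the filter on low counts and were tested. The 4 that did not pass were far peaks annotated to Ndufa4, Cox6c (2 peaks) and Cox7c.

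Promoter sequence is shown for the isoform pairs of cytochrome c oxidase, because the comparison of muscle with ubiquitous forms turns on these genes. Each line gives the 250 bases before the RefSeq transcription start on the gene's own strand, 5′ to 3′, from RefSeq windows of build GRCm38.p6. Capitals mark the motifs searched for, on either strand. The muscle forms are Cox7a1 (chr7:30183921-30184170, plus strand) and Cox8b (chr7:140900447-140900696, minus strand). The ubiquitous forms are Cox6a1 (chr5:115348959-115349208, minus strand), Cox7a2 (chr9:79759854-79760103, minus strand) and Cox8a (chr19:7217617-7217866, minus strand). The promoter of Cox6a2, the muscle partner of Cox6a1, is named only.
Cox7a1: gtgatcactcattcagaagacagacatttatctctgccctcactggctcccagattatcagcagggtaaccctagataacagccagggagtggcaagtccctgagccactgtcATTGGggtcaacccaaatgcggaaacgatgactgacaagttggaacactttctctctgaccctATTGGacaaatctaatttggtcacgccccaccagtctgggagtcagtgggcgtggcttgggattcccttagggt
Cox7a2: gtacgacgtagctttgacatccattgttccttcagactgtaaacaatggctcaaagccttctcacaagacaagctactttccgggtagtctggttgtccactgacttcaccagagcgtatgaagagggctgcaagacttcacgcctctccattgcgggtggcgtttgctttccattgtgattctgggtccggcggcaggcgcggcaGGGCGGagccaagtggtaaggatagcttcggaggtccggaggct
Cox8b: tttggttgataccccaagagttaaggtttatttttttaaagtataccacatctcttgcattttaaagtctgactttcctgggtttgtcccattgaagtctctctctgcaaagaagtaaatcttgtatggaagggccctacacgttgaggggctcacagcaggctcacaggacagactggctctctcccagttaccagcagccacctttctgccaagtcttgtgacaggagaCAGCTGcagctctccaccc
Cox8a: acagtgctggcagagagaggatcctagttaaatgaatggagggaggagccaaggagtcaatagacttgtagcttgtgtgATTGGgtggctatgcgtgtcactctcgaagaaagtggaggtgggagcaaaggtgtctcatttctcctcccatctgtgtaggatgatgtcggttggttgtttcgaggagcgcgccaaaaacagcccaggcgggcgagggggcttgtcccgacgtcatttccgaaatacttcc
Cox6a1: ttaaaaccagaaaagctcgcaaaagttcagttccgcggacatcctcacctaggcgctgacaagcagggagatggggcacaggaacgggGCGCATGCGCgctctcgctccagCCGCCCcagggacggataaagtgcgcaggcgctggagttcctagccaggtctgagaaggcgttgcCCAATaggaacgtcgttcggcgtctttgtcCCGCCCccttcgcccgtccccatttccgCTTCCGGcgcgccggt

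The lines differ in CpG content. In the 250 bases shown, CpG occurred 4 times in Cox7a1 and 1 time in Cox8b, against 14 times in Cox7a2, 11 in Cox8a and 26 in Cox6a1. Motifs were searched in the 250 bases before and the first 50 bases after the start, and positions count from the start site. The ubiquitous Cox6a1 held GCGCATG, the core letters of the palindromic NRF1 motif, at -162 on one strand and at -159 on the other, so that the 2 matches overlap. It also held the ETS core CCGGAAG read by GABP at -16, CCAAT at -74 and the GC box GGGCGG at -139 and -44. Cox8a held CCGGAAG at -5, across the end of the printed line, and at 33, with CCAAT at -171. Cox7a2 held GGGCGG at -44, and the muscle form Cox7a1 held CCAAT at -137 and -74. The muscle form Cox8b held the E-box CAGCTG at -19 and at 17 and the TATA box TATAAA at 5. A match in such a window is a description of letters, not a bound site.

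A RefSeq window was found for 61 of the 74 member promoters that had a tested peak, and in all 61 the start lay inside that peak. Of these 61 windows, 14 held GCGCATG, or 23.0%, against 3.91% of all 32851 RefSeq windows of the same 300 bases, which include genes with no peak here. They spanned all complexes, with Ndufa6, Ndufa8, Ndufb6 and Ndufb8, the assembly factors Ndufaf4 and Ndufaf5, Sdhb, Uqcr11 and Uqcrc1, Cox5b and Cox6a1, and Atp5g2, Atp5k and Atp5l. CCGGAAG was also in 14 (23.0% against 8.86% of all windows), and AAGGTCA, the half-site letters of the estrogen-related receptors, was in 7 (11.5% against 4.72%). GGGCGG was in 27 (44.3% against 35.7%) and CCAAT in 26 (42.6% against 37.4%). CAGCTG was in 6 (9.84% against 16.3%), TATAAA in 6 (9.84% against 13.6%), and the MEF2 consensus in 0 (against 3.19%). All were counted on both strands. The median window held 19 CpG and was 57.3% G and C in members, against 7 CpG and 52.7% over all windows. The NRF1, ETS and GC box letters hold CpG themselves, and the windows were not matched on CpG or on G and C content.

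The 6 libraries held between 7608514 counts (WT replicate 8) and 12061822 counts (KO replicate 5) over all peaks. Levels are given as CPM per peak, counts scaled to library size with the TMM factors of edgeR. Unless given per kb, they are not divided by peak width, so a wide peak can rank high. Differences are log2 fold changes of KO over WT from edgeR's quasi-likelihood test. A peak was called at a Benjamini-Hochberg adjusted p under 0.05 over the 73896 tested peaks. Over all tested peaks 7.01% were called. The promoter peak of the targeted gene, Prr14, read 62.3, 66.5 and 57.1 CPM in WT and 51.2, 59.7 and 70.7 CPM in KO, and accessibility there does not check the knockout. The 10 skeletal muscle marker genes each had a promoter peak, with a median of 107.8 CPM per gene against 20.2 CPM over all promoters. In whole muscle, a change in the share of a cell type and a change in its chromatin cannot be told apart.

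The promoters of the respiratory chain genes were open in all 6 libraries, and none was called changed in KO. A promoter peak was the peak nearest the annotated start of a gene, within 3000 bases, and 74 member genes had one. Of these, 0 were called higher and 0 lower by edgeR, beside 1.59% of all 12882 promoter peaks (0.893% higher, 0.699% lower). At an unadjusted p under 0.05 the count among the 74 was also 0, and DESeq2 and limma-voom called 0 as well. The log2 fold changes lay between -0.30 and 0.28, and the 95% intervals of the 74 promoters together spanned -0.73 to 0.64. The median was 0.06 for the members and 0.06 for all promoters, and 55 of 74 members were above 0, or 74.3%, beside 64.1% of all promoters.

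**Figure D1:**
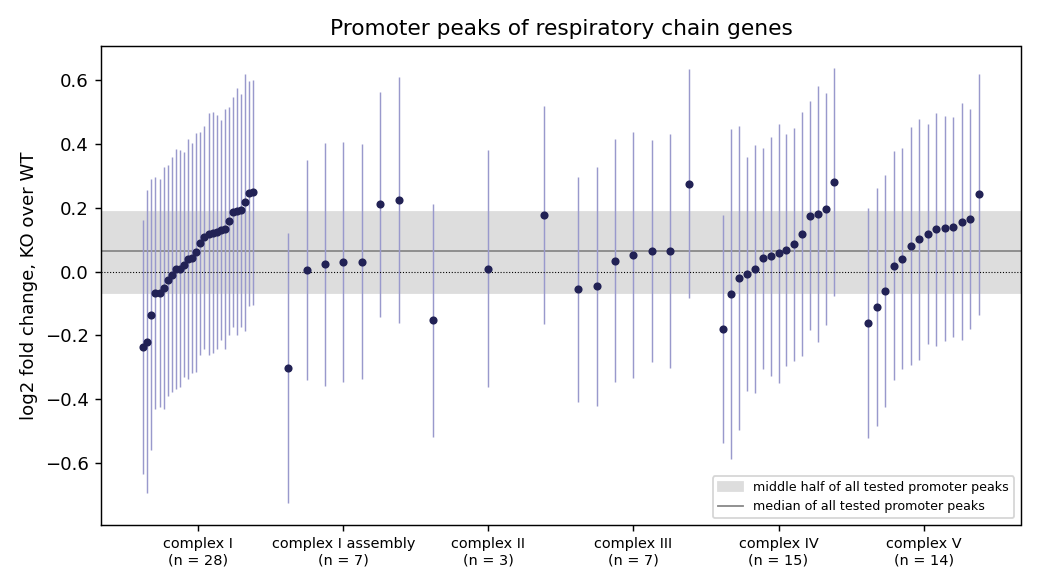
Log2 fold change of KO over WT (y axis) of the 74 promoter peaks of respiratory chain genes, ordered by value within each complex (x axis), with 95% intervals as vertical lines. The gray band is the middle 50% of all tested promoter peaks and the gray line their median, 0.06; the interval of every member promoter includes 0.

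The complexes are described by their median beside the median of all promoters, 0.06. The median log2 fold change over promoters was 0.07 for complex I (28 promoters), 0.03 for the complex I assembly factors (7), 0.01 for complex II (3), 0.05 for complex III (7), 0.06 for complex IV (15) and 0.11 for complex V (14). The SD of the library medians on the log2 scale was between 0.11 (complex IV) and 0.20 (assembly factors). That SD describes single libraries and is not the error of a difference between KO and WT. The complex medians were not tested. Member promoters were wider and higher than promoters in general, with a median of 30.9 CPM and 23.3 CPM per kb of peak beside 20.2 CPM and 16.4 CPM per kb over all promoters.

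Within complex I, the promoters of Ndufa6 and Ndufs4 marked the ends of the range. Ndufa6, an accessory subunit, read 42.1, 45.9 and 42.9 CPM in WT and 41.1, 50.8 and 63.6 CPM in KO (log2 fold change 0.25 ± 0.18 SE, edgeR adjusted p = 0.545). Its KO mean was raised mainly by replicate 7, and the groups overlapped. Ndufs4, an accessory subunit whose loss in mice gives a known model of complex I deficiency, read 20.1, 21.5 and 16.5 CPM in WT and 17.4, 16.0 and 16.0 CPM in KO (-0.24 ± 0.20 SE, edgeR adjusted p = 0.639). The highest promoter peak of the complex was that of the accessory subunit Ndufb5, at 62.1 ± 5.33 CPM in WT and 68.0 ± 1.95 CPM in KO (mean, SD, n = 3 each).

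The assembly factors held the lowest promoter value of all members. Ndufaf1, which helps to build the membrane arm of complex I, read 15.4, 16.0 and 12.2 CPM in WT and 12.4, 11.3 and 11.8 CPM in KO (-0.30 ± 0.22 SE, edgeR adjusted p = 0.541). The lowest WT value, in replicate 8, lay below the highest KO value, so the groups overlapped there. Ndufaf7, a methyltransferase that acts on a complex I subunit, had the highest value of the 7 (0.22 ± 0.20 SE), and Ndufaf3 the highest level, at 65.6 ± 8.06 CPM in WT and 65.8 ± 5.66 CPM in KO (mean, SD, n = 3 each).

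In complex II, Sdhb, the iron-sulfur subunit, had both the highest level and the highest log2 fold change, with 73.4 ± 10.2 CPM in WT and 83.0 ± 3.07 CPM in KO (mean, SD, n = 3 each, 0.18 ± 0.18 SE). Sdhc, one of the membrane anchors, had the lowest, at 33.1 ± 3.07 CPM in WT and 29.8 ± 2.66 CPM in KO (-0.15 ± 0.19 SE). Neither was called, and Sdhb had the most tested peaks of the complex, 3, of which 0 were called.

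In complex III, the core subunit Uqcrc2 read 35.4, 35.7 and 31.7 CPM in WT and 37.1, 42.7 and 44.8 CPM in KO. All 3 KO values lay above all 3 WT values, with a log2 fold change of 0.28 ± 0.18 SE that did not pass the test (edgeR adjusted p = 0.490). Uqcr10, a small accessory subunit, had the lowest value (-0.06 ± 0.18 SE). Uqcrq had the highest level of the 7, at 53.8 ± 8.31 CPM in WT and 56.3 ± 1.31 CPM in KO (mean, SD, n = 3 each).

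In complex V, Atp5mpl, a small membrane subunit, read 22.5, 23.4 and 22.4 CPM in WT and 25.8, 26.1 and 28.9 CPM in KO (0.24 ± 0.19 SE, edgeR adjusted p = 0.602). Its groups did not overlap. Atp5l, subunit g, which takes part in the dimer of the synthase, had the lowest value (-0.16 ± 0.18 SE), and Atp5g1, a gene of the c subunit of the rotor ring, the highest level, at 67.3 ± 9.34 CPM in WT and 74.3 ± 3.71 CPM in KO (mean, SD, n = 3 each).

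Counted over all 74 member promoters, 5 had every KO library above every WT library (Ndufc2, Ndufaf8, Uqcrc2, Cox5b and Atp5mpl) and 1 had every KO library below (Cox7a2l). Over all promoters, 6.64% were separated upward and 3.97% downward, and the members' counts were near these shares. Cox7a2l read 41.6, 46.0 and 39.2 CPM in WT and 35.7, 37.9 and 38.5 CPM in KO (-0.18 ± 0.18 SE, edgeR adjusted p = 0.712). Several members moved together by library: WT replicate 8 was the lowest library at 46 of the 74 promoters (62.2%, beside 36.4% of all promoters) and WT replicate 4 the highest at 31 (41.9%, beside 15.9%). The summed CPM of the 10 skeletal muscle marker promoters also had its lowest and highest library in WT replicates 8 and 4, at 960 and 1539 CPM, while the KO libraries lay between 1115 and 1199 CPM. The part of this in the member values was not tested. Without WT replicate 8 the median of the member promoters was 0.03, beside 0.07 for all promoters. Without WT replicate 4 the member median was 0.15, beside 0.09 for all promoters.

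No muscle form of a cytochrome c oxidase subunit, and no ubiquitous form, was called, and no difference in response between the forms was detectable with 3 libraries a group. In complex IV, Cox6a2, the muscle form of subunit 6a, read 28.4, 38.7 and 25.1 CPM in WT and 31.6, 30.4 and 30.0 CPM in KO (-0.01 ± 0.19 SE). Its ubiquitous partner Cox6a1 read 32.1, 31.3 and 27.4 CPM in WT and 31.4, 33.7 and 31.3 CPM in KO (0.09 ± 0.19 SE). Of this pair, only Cox6a2 had a WT library far above the rest, replicate 4.

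For subunit 7a, the muscle form Cox7a1 read 28.1, 27.0 and 22.9 CPM in WT and 29.3, 24.5 and 27.0 CPM in KO (0.05 ± 0.19 SE). The ubiquitous Cox7a2 read 33.4, 34.3 and 26.9 CPM in WT and 30.1, 32.7 and 36.5 CPM in KO (0.07 ± 0.19 SE). In both genes WT replicate 8 was the lowest library and the groups overlapped. For subunit 8, the muscle form Cox8b read 32.5, 44.2 and 25.9 CPM in WT and 37.0, 47.5 and 40.6 CPM in KO, and had the highest log2 fold change of all 74 promoters (0.28 ± 0.18 SE, edgeR adjusted p = 0.476). The ubiquitous Cox8a read 59.3, 66.3 and 51.1 CPM in WT and 50.4, 62.3 and 69.2 CPM in KO (0.04 ± 0.18 SE). This was the highest promoter level of complex IV in CPM per peak, not per kb.

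Taking the log2 ratio of muscle to ubiquitous form in each library takes out what both peaks share in a library. For Cox8b over Cox8a the ratio was -0.87, -0.58 and -0.98 in WT and -0.44, -0.39 and -0.77 in KO. KO minus WT was 0.27, with KO replicate 7 below WT replicate 4 (exact permutation test, two-sided, p = 0.2, adjusted over the 3 pairs 0.6). For Cox6a2 over Cox6a1 the means were 0.00 ± 0.26 in WT and -0.07 ± 0.08 in KO (mean, SD, n = 3 each), a difference of -0.07 (exact permutation p = 0.9, adjusted 1). That difference was 0.08 without WT replicate 4. For Cox7a1 over Cox7a2 they were -0.28 ± 0.06 and -0.30 ± 0.22 (mean, SD, n = 3 each), a difference of -0.02 (exact permutation p = 1, adjusted 1), and its sign changed with single libraries left out. With 3 against 3 libraries the smallest p this test can give is 0.1.

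**Figure D2:**
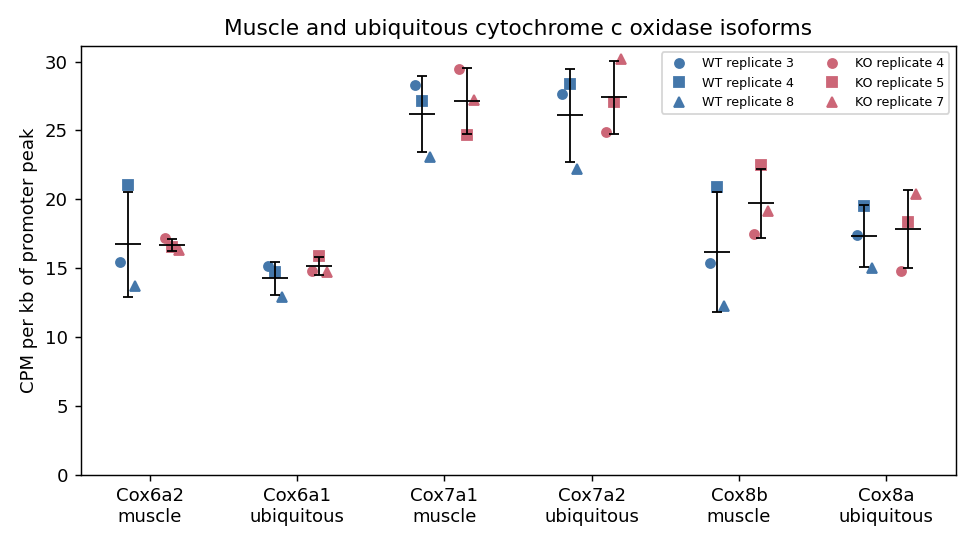
CPM per kb of promoter peak (y axis) for the muscle and ubiquitous forms of cytochrome c oxidase subunits 6a, 7a and 8 (x axis), with 1 point per library and the mean and SD of the 3 WT (blue) and 3 KO (red) libraries. WT and KO overlap for each of the 6 genes, and in 4 of them WT replicate 4 is the highest WT library.

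Per kb of peak, the muscle and ubiquitous forms of a subunit had levels near each other. Cox6a2 stood at 16.7 CPM per kb in WT and 16.7 in KO, beside 14.3 and 15.1 for Cox6a1. Cox7a1 stood at 26.2 and 27.1 CPM per kb, beside 26.1 and 27.4 for Cox7a2. Cox8b stood at 16.2 and 19.7 CPM per kb, beside 17.3 and 17.8 for Cox8a. Within each pair the difference was under the larger of the SDs between libraries, except for subunit 6a in KO.

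Away from promoters a few member peaks did change, and all 10 called member peaks lay between 7197 and 94249 bases from the start of the gene they were annotated to. Over all tested member peaks, 5 were higher and 5 lower in KO, 4.12% of 243, beside 7.01% of all tested peaks (2.77% higher, 4.23% lower). Over the 160 member peaks beyond 3000 bases it was 6.25%, beside 8.24% of all such peaks (3.16% higher, 5.08% lower). Neither share exceeded the background. The counts moved with single libraries: leaving out WT replicate 3 gave 2 higher peaks, leaving out KO replicate 4 gave 3, and leaving out KO replicate 5 gave 2. The higher share of all peaks also fell in these runs, to 1.72%, 1.62% and 1.29%. For lower peaks the count was 0 once WT replicate 4 was dropped and 1 once KO replicate 5 was, beside 1.89% and 2.03% of all peaks. With the authors' scaling factors in edgeR 6 were higher and 1 lower, beside 2.19% and 1.02% of all peaks. DESeq2 called 4 higher and 3 lower, beside 2.76% and 3.6% of all peaks. The authors' deposited table gave an adjusted p for 222 member peaks and called 5 higher and 0 lower, beside 2.44% higher and 0.872% lower of all its peaks (3.32% in all). Member peaks with all KO libraries on one side of all WT libraries numbered 22 above and 13 below of 243, beside 9.17% and 11.2% of all tested peaks. By complex, 7 of the called peaks were annotated to complex I genes (Ndufs4, Ndufa10, Ndufb5) and 3 to complex V genes (Atp5g1, Atp5g2). That was 7.14% of the 98 tested peaks of complex I and 6.38% of the 47 of complex V, near the 7.01% of all tested peaks. No called peak was annotated to an assembly factor or to complex II, III or IV, which had 25, 8, 17 and 46 tested peaks. The gene of each peak is the one the authors' table gives, which does not show that the peak acts on it.

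**Figure D3:**
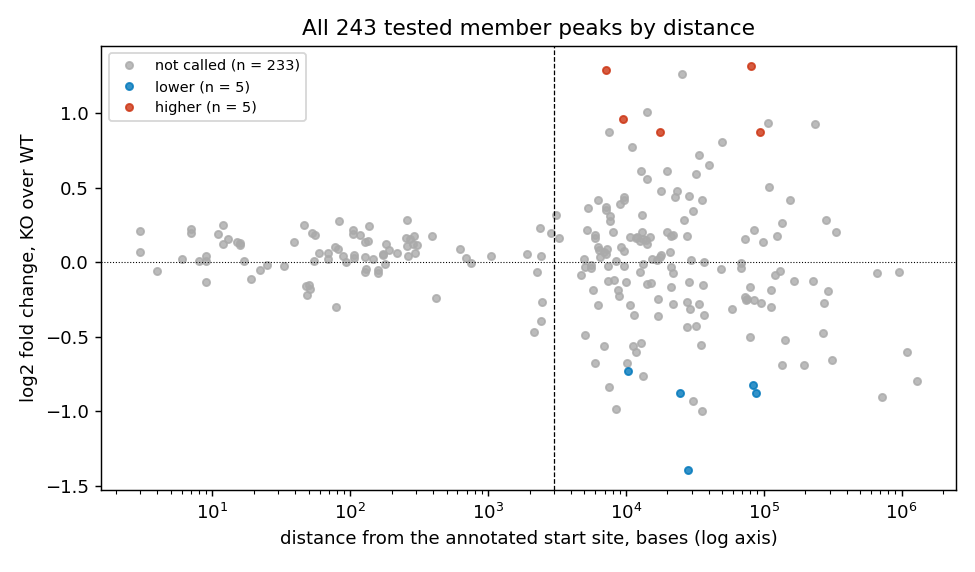
Log2 fold change of KO over WT (y axis) of the 243 tested member peaks against the distance of the peak from the annotated start site in bases (x axis, log scale, both directions folded together); the dashed line is at 3000 bases. The 5 higher (red) and 5 lower (blue) peaks all lie to the right of that line, where peaks scatter more widely.

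The 4 called Ndufs4 peaks were all lower in KO and all lay in introns of Ndufs4 itself, on chromosome 13 of GRCm38. The peak 24792 bases downstream of the start (chr13:114362155-114364358) read 16.2, 32.7 and 18.7 CPM in WT and 13.9, 9.04 and 14.1 CPM in KO. Its log2 fold change was -0.88 ± 0.21 SE (edgeR adjusted p = 0.00095). All KO libraries lay below all WT libraries, and WT replicate 4 lay far above the rest. The call was lost without WT replicate 4 (-0.47, adjusted p = 0.219), without KO replicate 5 (-0.66, adjusted p = 0.137) and with the authors' scaling factors (-0.72, adjusted p = 0.251).

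The next peak, 28115 bases downstream (chr13:114359759-114360109), read 5.35, 7.09 and 5.40 CPM in WT and 1.78, 1.97 and 3.02 CPM in KO. It had the largest fall of any tested member peak (-1.39 ± 0.34 SE, edgeR adjusted p = 0.00167), and its adjusted p was 0.0507 without WT replicate 4. Further into the gene, the peak at 82961 bases (chr13:114304370-114305805) read 8.44, 10.03 and 8.42 CPM in WT and 4.60, 4.69 and 5.95 CPM in KO (-0.82 ± 0.26 SE, edgeR adjusted p = 0.0288). The peak at 88440 bases (chr13:114299269-114299949) read 5.86, 6.35 and 9.48 CPM in WT and 5.85, 3.04 and 2.93 CPM in KO (-0.88 ± 0.29 SE, edgeR adjusted p = 0.0375). In the last, KO replicate 4 lay only just under the lowest WT library. DESeq2 called neither (adjusted p = 0.0522 and 0.136). Leaving out any 1 library but KO replicate 7 ended the call at 82961 bases (adjusted p from 0.0549 without WT replicate 8 to 0.226 without KO replicate 5). Dropping replicate 4 or 8 of WT, or replicate 5 or 7 of KO, ended the call at 88440 bases (adjusted p from 0.0726 to 0.359). With the authors' scaling factors both were also lost (adjusted p = 0.349 and 0.323).

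Ndufs4 had 18 tested peaks, and the other 14, its promoter included, were not called. They lay on both sides of 0. The highest was a peak 236014 bases downstream, beyond the end of Ndufs4, with 2.78, 2.95 and 2.37 CPM in WT and 5.23, 6.41 and 3.84 CPM in KO (0.93 ± 0.34 SE, edgeR adjusted p = 0.0787).

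Ndufa10, an accessory subunit of complex I, had 14 tested peaks, of which 2 were higher in KO. Both lay beyond the end of the gene on chromosome 1, 46059 and 59606 bases past it, with Hdac4 as the next protein-coding gene on the other side, 197008 and 183414 bases away. The peak 80678 bases downstream of the start (chr1:92392710-92393427) read 1.34, 2.12 and 3.29 CPM in WT and 5.65, 6.90 and 3.94 CPM in KO (1.31 ± 0.35 SE, edgeR adjusted p = 0.00544). The peak at 94249 bases (chr1:92379116-92379880) read 6.38, 6.44 and 6.19 CPM in WT and 12.8, 13.7 and 8.42 CPM in KO (0.87 ± 0.24 SE, edgeR adjusted p = 0.00809).

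In both peaks every KO library lay above every WT library, with KO replicate 7 the lowest of the KO libraries. Without WT replicate 3 or KO replicate 5 the first lost its call (adjusted p = 0.0896 and 0.140), and without KO replicate 4 or 5 the second did (adjusted p = 0.0689 and 0.136). Among the 12 other Ndufa10 peaks, an intronic peak 25309 bases downstream had nearly as large a difference (1.26 ± 0.45 SE) from low levels, 0.921 to 1.93 CPM in WT and 2.47 to 4.85 CPM in KO, and did not pass (edgeR adjusted p = 0.0644). The promoter of Ndufa10 read 25.8, 24.3 and 22.6 CPM in WT and 25.8, 23.8 and 30.4 CPM in KO (0.13 ± 0.19 SE).

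**Figure D4:**
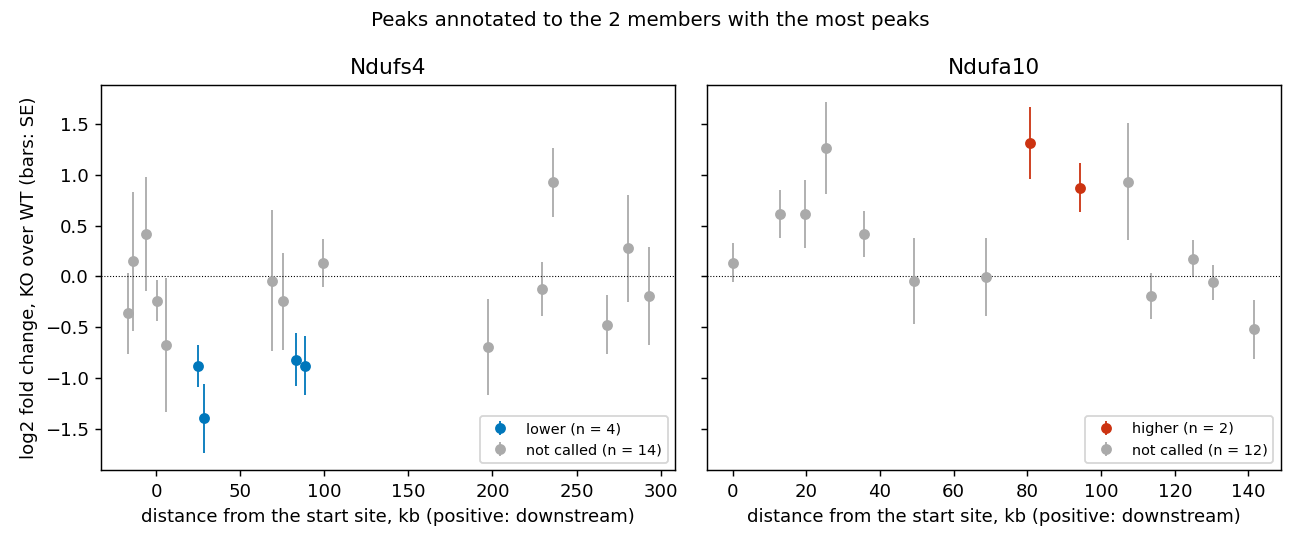
Log2 fold change of KO over WT (y axis, bars are SE) of the tested peaks annotated to Ndufs4 (left, 18 peaks) and Ndufa10 (right, 14 peaks) against the distance from each gene's start site in kb (x axis, positive is downstream). The 4 lower Ndufs4 peaks lie within the gene and the 2 higher Ndufa10 peaks past its end, while the promoter peaks near 0 kb were not called.

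Ndufb5 had the called peak with the smallest p-value of all members. It lay 9468 bases downstream of the start (chr3:32753573-32754874), 2014 bases past the end of Ndufb5, with Usp13 the next gene 61409 bases on. It read 9.26, 9.48 and 6.98 CPM in WT and 16.1, 15.8 and 18.5 CPM in KO (0.96 ± 0.22 SE, edgeR adjusted p = 0.00073). The lowest KO library was well above the highest WT library, and the call was kept under each alternative run and in the authors' deposited table. The promoter of Ndufb5 was not called (0.13 ± 0.18 SE).

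The 3 called peaks of complex V were annotated to genes of the c subunit. Both Atp5g1 peaks lay upstream of the gene and were higher in KO. The peak 17532 bases upstream (chr11:96092751-96093652), 5264 bases from the RefSeq span of Calcoco2 and 17057 from that of Atp5g1, read 5.66, 11.8 and 10.1 CPM in WT and 16.7, 17.3 and 16.5 CPM in KO (0.87 ± 0.22 SE, edgeR adjusted p = 0.0026). The KO libraries lay close together and above all WT libraries, of which replicate 3 was the lowest. Without WT replicate 3 the value was 0.63 (adjusted p = 0.130).

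The peak 7197 bases upstream (chr11:96082721-96083012) was low, with 0.823, 2.21 and 1.71 CPM in WT and 3.66, 4.69 and 3.30 CPM in KO (1.29 ± 0.43 SE, edgeR adjusted p = 0.043). Its adjusted p was 0.0535 in DESeq2 and 0.0675 in limma-voom, and from 0.0577 to 0.294 without replicate 3 of WT or any 1 replicate of KO. The Atp5g2 peak (chr15:102656110-102658512), 4356 bases past the end of the gene, fell from 30.3, 37.5 and 24.6 CPM in WT to 21.1, 16.0 and 18.9 CPM in KO (-0.73 ± 0.19 SE, edgeR adjusted p = 0.00478). It was the highest of the called peaks. Without WT replicate 4 or KO replicate 5 its adjusted p was 0.0832 and 0.178, and with the authors' scaling factors 0.457.

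**Figure D5:**
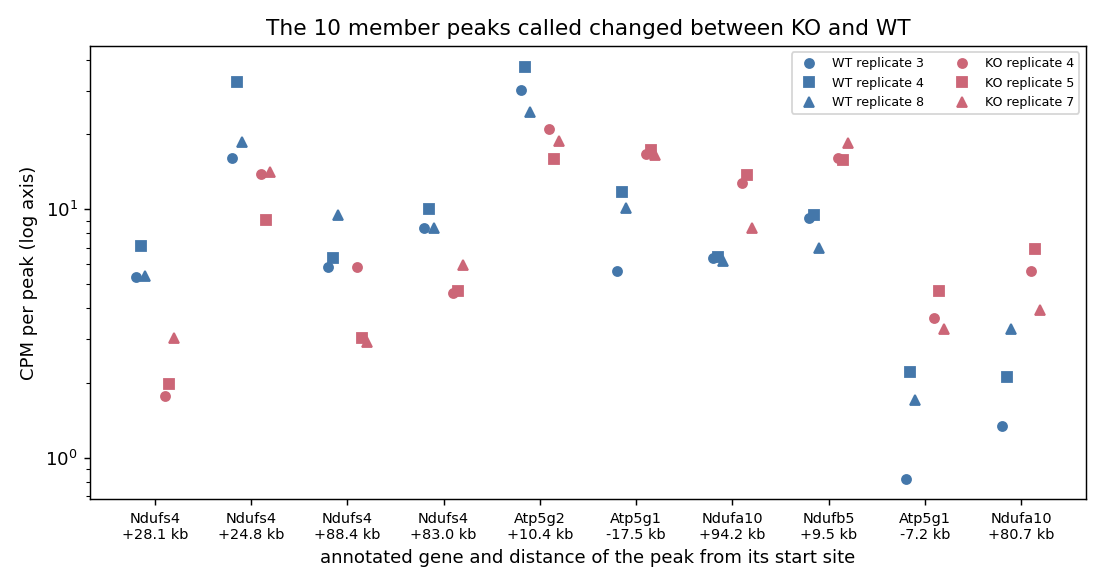
CPM (y axis, log scale) of the 10 called member peaks in each library, WT in blue and KO in red, named by the annotated gene and the distance from its start site in kb (x axis, ordered by log2 fold change from lower to higher in KO). In each peak all 3 KO libraries lie on one side of the 3 WT libraries; at the Ndufs4 peak at 88440 bases the nearest values are 5.85 and 5.86 CPM.

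The other genes with many peaks had none called. Ndufaf6 had 10 tested peaks, Cox6c, a structural subunit of complex IV, had 11, and Atp5l and Uqcrfs1, the Rieske iron-sulfur protein of complex III, had 6 each. The smallest adjusted p was 0.214 for Ndufaf6, 0.173 for Cox6c, 0.453 for Atp5l and 0.858 for Uqcrfs1 (edgeR). Over all member peaks beyond 3000 bases the median log2 fold change was -0.00, beside -0.05 for all such peaks. The share of each library's counts that fell in member peaks was 0.394%, 0.405% and 0.350% in WT and 0.399%, 0.416% and 0.416% in KO. KO was higher by 0.0270 percentage points (exact permutation test, two-sided, p = 0.2), with WT replicate 4 above KO replicate 4.

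Some starts lay in a peak annotated to a neighboring gene. Of 11 member genes without a promoter peak of their own, 9 had their RefSeq start inside a peak under another name. For Ndufaf2 that peak was annotated to Ercc8 and Ndufaf2 jointly, which the naming rule does not match. The starts of Cox4i2 and Cox5b-ps were not analysed here. None of these peaks was called. An example is Atp5j, subunit F6 of the synthase, whose start lies in the peak of Gabpa, the gene of a GABP subunit. That peak read 65.9, 75.5 and 62.1 CPM in WT and 74.8, 86.1 and 83.7 CPM in KO (0.26 ± 0.18 SE, edgeR adjusted p = 0.491). In turn, at least 11 of the 74 member promoter peaks held the RefSeq start of another gene, such as Zmat5 in the Uqcr10 peak.

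Taking the nearest promoter peak of each gene, none in the neighboring mitochondrial gene lists was called by edgeR, DESeq2 or limma-voom. Of all promoter peaks edgeR called 1.59%. Among 44 other assembly and partner genes of the chain, such as Surf1 and Cycs, 35 had a tested promoter peak, with 0 higher, 0 lower, 2 at an unadjusted p under 0.05 and a median log2 fold change of 0.05. Of 16 genes of the tricarboxylic acid cycle and pyruvate dehydrogenase, 15 had one, with 0 higher, 0 lower, 0 at an unadjusted p under 0.05 and a median of 0.09. A further Cs peak within 3000 bases, 2558 bases upstream of its start, was higher. It read 2.63 ± 0.45 CPM in WT and 5.50 ± 1.01 CPM in KO (mean, SD, n = 3 each, 1.05 ± 0.34 SE, edgeR adjusted p = 0.032). Over all peaks of these lists, 1 of 95 was higher and 3 lower in the first, and 3 of 73 higher and 2 lower in the second. Over all tested peaks 2.77% were higher and 4.23% lower.

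Of 17 regulators of respiratory chain genes, 16 had a tested promoter peak. Of these 1 was called, beside 1.59% of all promoter peaks: that of Esrrb, a receptor of the estrogen-related family. It read 6.59, 7.27 and 10.3 CPM in WT and 16.2, 14.1 and 14.3 CPM in KO (0.90 ± 0.23 SE, edgeR adjusted p = 0.00286). All KO libraries lay above all WT libraries. The other 15 promoters, Ppargc1a, Nrf1, Gabpa and Tfam among them, were not called, and the median over the 16 was 0.07.

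Over all 168 tested peaks of the regulators, 10 were higher and 15 lower in KO, beside 2.77% and 4.23% of all tested peaks. Most belonged to Esrrg and Nrip1, which are singled out here after these counts were seen. Esrrb and Ppargc1a had 1 higher and 1 lower each, and Pprc1 had 1 lower. The lower Ppargc1a peak, 19152 bases downstream of its start, read 26.1 ± 7.91 CPM in WT and 11.5 ± 2.20 CPM in KO (mean, SD, n = 3 each, -1.19 ± 0.21 SE, edgeR adjusted p = 1.06e-06). The higher one, 28056 bases upstream, had 0.70 ± 0.22 SE (edgeR adjusted p = 0.022). The lower Esrrb peak had -1.19 ± 0.27 SE (edgeR adjusted p = 0.000604). Esrrg, the estrogen-related receptor known for driving oxidative metabolism in muscle, had 8 of 26 peaks higher and 0 lower, all in introns. The largest was 89815 bases upstream of the annotated start, at 3.44 ± 1.24 CPM in WT and 13.9 ± 2.50 CPM in KO (mean, SD, n = 3 each; log2 fold change 2.04 ± 0.26 SE, edgeR adjusted p = 6.8e-12). Without WT replicate 3 the count was 3, and without KO replicate 4 it was 4. Nrip1, a corepressor known to hold down oxidative genes, had 12 of 41 peaks lower and 0 higher. They included a peak 1723 bases upstream of its start, at 41.4 ± 12.7 CPM in WT and 24.5 ± 1.29 CPM in KO (mean, SD, n = 3 each; -0.76 ± 0.19 SE, edgeR adjusted p = 0.00179). The nearest Nrip1 promoter peak, 88 bases from the start, was not called. It read 46.4 ± 10.4 CPM in WT and 45.4 ± 10.9 CPM in KO (mean, SD, n = 3 each, -0.04 ± 0.18 SE, edgeR adjusted p = 0.960). With the authors' scaling factors 4 Nrip1 peaks were lower, and without WT replicate 4 there were 7.

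Markers of cell types were followed beside these values. Among all promoter peaks, 0.893% were called higher and 0.699% lower. Of the 10 skeletal muscle promoters 0 were higher and 1 lower, that of Myh4, the myosin of the fastest fibers, which read 75.4, 105 and 57.4 CPM in WT and 37.7, 41.8 and 33.2 CPM in KO (-1.08 ± 0.18 SE, edgeR adjusted p = 3.95e-07). Over all 60 skeletal muscle marker peaks, 10 were lower and 3 higher in KO, beside 4.23% and 2.77% of all tested peaks, with a median log2 fold change of -0.23. Of the lower peaks 7 belonged to Myh4 and 1 each to Mb, Actn3 and Ckm, and of the higher peaks 2 belonged to Mb and 1 to Pvalb. Of 5 endothelial promoters 1 was higher, that of Cldn5 (0.71 ± 0.19 SE, edgeR adjusted p = 0.00594), and the list's median was -0.26. Their summed level was 38.2 to 58.6 CPM in WT and 43.2 to 65.2 CPM in KO, with no promoter peak of their own for Pecam1 and Emcn. None of the tested promoters of fibro-adipogenic (6), satellite cell (3), smooth muscle and pericyte (5), macrophage (2), adipocyte (1), Schwann cell (1) or T cell (1) markers was called by edgeR, DESeq2 or limma-voom, and 1 of these 19, that of the satellite cell gene Pax7, had an unadjusted p under 0.05. The satellite cell promoters had 0.53 ± 0.22 SE (Pax7), -0.17 ± 0.22 SE (Myf5) and -0.07 ± 0.31 SE (Vcam1). Over all its peaks, promoters included, the satellite cell list had 4 of 17 higher and 0 lower, with a median of 0.13. All 4 lay in introns of Pax7, the transcription factor that marks satellite cells. The strongest stood 61789 bases downstream of the Pax7 start, at 8.93 ± 0.944 CPM in WT and 20.6 ± 3.22 CPM in KO (mean, SD, n = 3 each; 1.21 ± 0.22 SE, edgeR adjusted p = 3.19e-06). Over all peaks of the other lists, endothelial markers had 3 of 52 higher and 2 lower, smooth muscle and pericyte markers 1 of 20 higher, and macrophage markers 1 of 11 lower. The shares over all tested peaks, for these lists and the satellite cell list, were 2.77% higher and 4.23% lower. Fibro-adipogenic (44 peaks), adipocyte (6), Schwann cell (5) and T cell (2) markers had 0 called by edgeR, DESeq2 or limma-voom, and 1 of these 57 peaks had an unadjusted edgeR p under 0.05. The part of cell type shares in the member values, promoter or distal, was not tested.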

How the data were processed

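ATAC-seq was made from quadriceps femoris nuclei in 6 libraries, 3 per genotype. Per the submitters' processing notes, which assign no roles, the build was GRCm38 and the tools were BWA, Trimmomatic, bedtools, MACS2, DESeq2 1.6.3 and deepTools. For read shift, duplicate handling and the counting tool, the sources used here give nothing. The authors deposited whole-number counts for 1 common peak list. They also deposited a normalized signal (each count divided by a library factor), a log2 fold change, raw and adjusted p-values, a peak score left unused here, the annotated gene and the distance from its start. The filters edgeR applied (filterByExpr, minimum count 10, minimum total 15) left 73896 peaks of all chromosomes. KO and WT were compared by edgeR 4.0.16 (TMM, quasi-likelihood, two-sided, Benjamini-Hochberg over all tested peaks) in R 4.3.3. TMM factors were 0.940 to 1.02, and the common biological coefficient of variation 0.201. Alternatives were DESeq2 1.42.0, limma-voom 3.58.1, other scaling and filters, and each library left out. CPM were scaled by TMM. The SE is the log2 fold change divided by the root of the F statistic. Intervals are 95% and rest on this SE.

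Members and lists were chosen with earlier results of these data known. Named were every called member peak, the 6 cytochrome c oxidase isoforms, the extremes and the highest promoter of each complex, the gene with the most peaks in it, and called promoters of the other lists. Coordinates are those of the deposited table; gene spans and promoter windows are RefSeq's of GRCm38.p6.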

Additional observations from a re-analysis of the deposited data

How the results depend on the processing

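Taking the nearest peak of each gene, no member promoter was called under any of the alternatives run: DESeq2, limma-voom, the authors' factors, total counts, no filter, a mean CPM of at least 2, promoters within 1000 bases, or any library left out. Some alternatives gained calls. A further Uqcrc1 peak, 2155 bases from the start, was called without WT replicate 8. The Ndufa10 peak at 25309 bases was called with the authors' factors and without KO replicate 7, and a Ndufv3 peak at 7551 bases without KO replicate 7. Of the 10 called member peaks, 7 were also called by DESeq2, 9 by limma-voom and 3 without KO replicate 5. Those runs called 6.36%, 6.39% and 3.31% of all peaks, and the main fit 7.01%. Peaks higher in KO numbered 5, with a range of 2 to 5 when 1 library was left out (2 without WT replicate 3, 3 without KO replicate 4, 2 without KO replicate 5). Of all peaks, 1.72%, 1.62% and 1.29% were higher in these runs, beside 2.77% in the main fit. Peaks lower in KO numbered 5, with a range of 0 to 5 (0 without WT replicate 4, 1 without KO replicate 5), 3 in DESeq2, 1 with the authors' factors and 0 in the authors' deposited table, which had 5 higher. The lower share of all peaks was 4.23% in the main fit. It was 1.89% without WT replicate 4, 2.03% without KO replicate 5, 3.6% in DESeq2 and 1.02% with the authors' factors. The cause of the lost calls was not tested. The authors' factors moved the median of all tested peaks from -0.01 to 0.19 and of all promoters from 0.06 to 0.27. The median of the member promoters became 0.25, with 71 of 74 above 0, so directions there are relative to that shift. Complex medians became 0.27 (I), 0.22 (II), 0.25 (III), 0.25 (IV) and 0.31 (V). With single libraries left out, the median of complex II ranged from -0.083 to 0.16. The difference for Cox6a2 over Cox6a1 ranged from -0.16 to 0.083 and was 0.010 with all peaks of each gene summed. For Cox7a1 over Cox7a2 it ranged from -0.15 to 0.047, above 0 when WT replicate 8 or either of KO replicates 5 and 7 was left out. No paired analysis was possible because the groups share only 1 replicate number, 4. Member peaks beyond 3000 bases had a median of 4.10 CPM and a median SE of 0.33, beside 30.9 CPM and 0.19 for member promoters.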

Other observations

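RefSeq holds 96 protein-coding symbols that match the naming rule, and 12 of them had no peak under their own name. For 6 of the 12 the RefSeq start lay inside a peak annotated to another gene: Ndufa13 (Yjefn3), Ndufb1 (Cpsf2), Ndufa7 (Rps28), Ndufa11 (Vmac), Ndufb11 (Rbm10) and Ndufa1 (Rnf113a1). All are complex I subunits, and none of the 6 peaks was called by edgeR. The log2 fold changes lay between -0.13 and 0.31 with a median of 0.09. The highest was the shared Ndufb1 and Cpsf2 peak, at 38.7, 29.5 and 30.5 CPM in WT and 33.8, 41.9 and 46.8 CPM in KO, where the groups overlapped (edgeR adjusted p = 0.404).

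The mitochondrial genome, which encodes the remaining chain subunits, held 2 peaks, annotated to mt-Nd1 and mt-Nd6. Together they took 5.85%, 8.44% and 11.6% of the counts in WT and 8.32%, 6.03% and 5.23% in KO (exact permutation test, two-sided, p = 0.4). The edgeR log2 fold change was -0.45 for each, with adjusted p-values of 0.0742 and 0.0763. Mitochondrial DNA carries no nucleosomes. Out of the counts outside the mitochondrial genome, member peaks took 0.419%, 0.442% and 0.397% in WT and 0.435%, 0.443% and 0.439% in KO (exact permutation p = 0.3).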
